A study of Homo sapiens with 12 samples.

Results

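The 8 genes described here code for proneural transcription factors and their close partners: NEUROG1, NEUROG2, NEUROD1, NEUROD4, NHLH1, NHLH2, INSM1 and ATOH1. They were chosen by name, as 8 of the 25718 gene symbols counted in the study, with no threshold on a measured value but with earlier results of these data known. Of the 8 genes, 6 had a mean above 10 reads per sample and were tested together with all 11451 genes above that level, whereas NHLH2 and ATOH1 lay below it and are described by their reads.

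Proneural factors are basic helix-loop-helix (bHLH) proteins that pair with E-proteins, bind E-box sequences in DNA and commit dividing neural progenitors to become neurons. They act in a cascade, with the neurogenins NEUROG1 and NEUROG2 switched on early in progenitors and NEUROD and NHLH factors switched on later, in newborn neurons, whereas INSM1 is a zinc-finger factor of the same cascade. Cells that express proneural factors present Notch ligands to their neighbours, where HES repressors keep the proneural genes low, and ID proteins hold back the E-proteins.

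Expression was measured by poly-A enriched RNA sequencing in 12 samples, 3 in each of 4 groups. All came from H9, an established line of human embryonic stem cells. All cells carried a lentiviral vector, added at a multiplicity of infection of 50, in which doxycycline switches on GFP together with either miR-10a or miR-10b, and all were differentiated for 14 days. SHH at 200 ng/ml and the GSK3 inhibitor CT99021, which patterned the cells towards ventral midbrain, were present in the early days of that time and withdrawn before doxycycline was added. The miR-10a doxycycline and miR-10b doxycycline groups received doxycycline from day 11 to day 14. The miR-10a control and miR-10b control groups were transduced cells of the same kind that received no doxycycline, so that effects of the drug, of GFP and of the miRNA cannot be told apart in these samples. The labels do not say whether replicates were separate cultures, and p-values then measure only the spread between these samples. Because whole cultures were sequenced, a change in the number of cells that express a gene and a change in RNA per cell cannot be told apart.

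Total counts were between 10545487 and 14165426 reads per sample, and within each vector all controls had higher totals than all doxycycline samples. Values below are given as CPM, reads scaled to the total of the sample. The precursor gene of the induced miRNA followed the labels: MIR10A was at 711 to 731 CPM in the miR-10a doxycycline group and at 0.641 to 1.37 CPM in its control, and MIR10B was at 2541 to 2662 CPM in the miR-10b doxycycline group and at 2.89 to 4.45 CPM in its control. The midbrain label was checked on 13 genes of floor plate and neural progenitors, of which 11 had a mean above 10 reads, with SOX2 at 1018 to 1209 CPM, SHH at 555 to 636 CPM and EN1 at 87.2 to 111 CPM. The floor plate gene LMX1A was lower, at 2.49 to 8.08 CPM, and FOXA2 at 5.98 to 9.61 CPM. The forebrain and midbrain gene OTX2 was close to 0, at 0.19 to 0.804 CPM (2 to 10 reads), and LMX1B was at 0 reads in all samples, which goes against the label for these genes. Both have several RefSeq transcripts, and how reads shared by transcripts were counted is not given in the sources used here. Replicate 2 of the miR-10b doxycycline group stood apart from its replicates, with a chi-square of counts per degree of freedom of 3.17 to 4.11 against 1.22 to 1.93 in the other pairs. Without that sample, the same numbers of proneural genes passed the test, 2 with miR-10b and 3 over both vectors.

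Whether the induced miRNA could pair with the proneural transcripts was looked at first, in sequence alone. A miRNA recognises its targets mainly through its seed, bases 2 to 8, shown in capitals for miR-10a, whose gene lies in RefSeq at chr17:48579904-48579926 on the minus strand (GRCh38.p14).
hsa-miR-10a-5p: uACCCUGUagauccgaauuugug
The strongest canonical sites for this seed are the 8mer ACAGGGTA and the 7mer-m8 ACAGGGT, followed by the 7mer-A1 CAGGGTA and the 6mer CAGGGT. In the longest annotated 3′UTR of each gene (GENCODE 44 on GRCh37), 0 of the 8 proneural genes held an 8mer or a 7mer-m8, which 16.3% of the 9260 tested genes with a 3′UTR held. Weaker matches were found in 3 genes and are printed with their surroundings, the match in capitals: a 7mer-A1 in NEUROD4 at chr12:55422817-55422823 on the plus strand, a 6mer in NHLH1 at chr1:160342016-160342021 on the plus strand and a 6mer in NHLH2 at chr1:116379134-116379139 on the minus strand.
NEUROD4 7mer-A1: agtttaacatgCAGGGTAcatc
NHLH1 6mer: gcactatagctCAGGGTcagca
NHLH2 6mer: ttagtctttttCAGGGTttttt
Among all tested genes with a 3′UTR, 6.95% held a 7mer-A1 and 29.4% a 6mer, and 40.7% held a match of any kind. These letters describe the sequence and are not evidence of binding.

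The 6 measured factors spanned a wide range of levels. Per kilobase of transcript, INSM1 was at 74.6 CPM on average (63.7 to 86 over the 12 samples), NEUROG2 at 37.5 (33.2 to 39.6), NHLH1 at 25.8 (22.2 to 29.5), NEUROG1 at 23.6 (20.5 to 24.9), NEUROD1 at 13.3 (11.7 to 14.9) and NEUROD4 at 11.5 (10.4 to 12.5). Within each sample every factor lay above the next in this order in 12 of 12 samples, except that NHLH1 lay above NEUROG1 in 10 of 12. INSM1 had more reads than 90% of the tested genes. NHLH2 was at 0.233 and ATOH1 at 0.00627 CPM per kilobase, far below the other factors. Each of these genes except NHLH2 was counted on a single RefSeq transcript. NHLH2 had 2, and how reads shared by them were counted is not given. Its low level can therefore not be set beside the others with certainty.

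**Figure D1:**
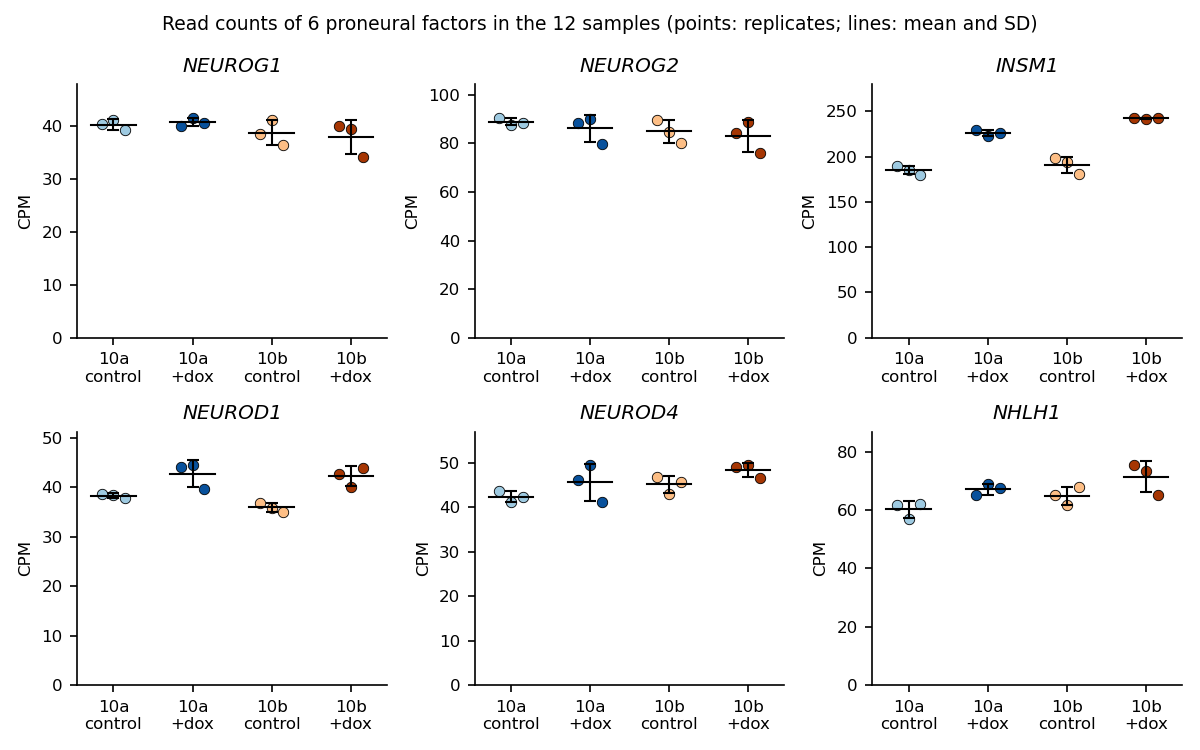
Scaled reads (CPM, linear axis from 0) of the 6 measured factors in the 4 groups; points are the 3 replicates of a group, long lines the group mean and bars 1 SD. INSM1 rose from 180 to 198 CPM in the controls to 223 to 243 CPM with doxycycline, whereas the NEUROG1 and NEUROG2 groups overlapped.

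The neurogenins, which start the cascade, were not called in any comparison. NEUROG2 (chr4:113434672-113437336, minus strand, GRCh37, 2 exons) was at 90.6, 87.6 and 88.5 CPM in the miR-10a controls and at 88.3, 90.2 and 79.8 CPM with doxycycline. It was at 89.7, 84.6 and 80.3 CPM in the miR-10b controls and at 84.3, 88.7 and 75.9 CPM with doxycycline. The groups overlapped with both vectors, and the lowest value of each vector was a doxycycline sample. The average log2 fold change over both vectors was -0.038 (SE 0.038), with a 95% interval from -0.114 to 0.0387 and an adjusted p of 0.58 in edgeR.

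NEUROG1 (chr5:134869972-134871654, minus strand, 1 exon) was at 40.3, 41.2 and 39.2 CPM in the miR-10a controls and at 40, 41.6 and 40.6 CPM with doxycycline. In the miR-10b cultures it was at 38.4, 41.2 and 36.5 CPM without and at 40, 39.4 and 34.2 CPM with doxycycline. The values interleaved in both vectors. The average log2 fold change was -0.0068 (SE 0.045), with a 95% interval from -0.0987 to 0.0851 and an adjusted p of 0.95 in edgeR, which leaves room for a change of -6.61 to 6.08%. NEUROG1 lies opposite SLC25A48 and a long noncoding RNA, and NEUROG2 opposite NEUROG2-AS1. The strand setting of the counting is not given in the sources used here, so that reads of these neighbours cannot be told apart from those of the neurogenins.

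INSM1 showed the largest change of the 6 tested genes. This zinc-finger repressor (chr20:20348748-20351593, plus strand, 1 exon) is known from progenitors that leave the cell cycle and from endocrine cells. It was at 189, 185 and 180 CPM in the miR-10a controls and at 229, 223 and 226 CPM with doxycycline. It was at 198, 194 and 181 CPM in the miR-10b controls and at 243, 241 and 242 CPM with doxycycline. Every doxycycline sample lay above every control, with either vector and across vectors. The log2 fold change was 0.29 (SE 0.037, adjusted p = 4.6e-06, edgeR) with miR-10a and 0.34 (SE 0.037, adjusted p = 9.1e-09) with miR-10b. Over both vectors INSM1 was 24.4% higher (95% interval 20 to 29.1%, adjusted p = 2.2e-11), and the exact permutation test within vectors gave a two-sided p of 0.005, the smallest it can give. INSM1 ranked 9th of the 11451 tested genes by p with miR-10a, 64th with miR-10b and 24th over both. By size of the change it ranked only 1225th, 1385th and 737th. Its size over both vectors, 0.32 on the log2 scale, can be set beside a median size of 0.151 among the genes called there. Leaving out each of the 12 samples in turn gave 0.2956 to 0.3288, and INSM1 stayed called in all of these fits.

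NEUROD1 rose less than INSM1. NEUROD1 (chr2:182533022-182545554, minus strand, 2 exons) acts downstream of the neurogenins in newborn neurons and lies within the span of CERKL on the same strand. It was at 38.7, 38.5 and 37.8 CPM in the miR-10a controls and at 44.1, 44.6 and 39.6 CPM with doxycycline. In the miR-10b cultures it was at 36.9, 35.9 and 35.1 CPM without and at 42.8, 40.2 and 44 CPM with doxycycline. The doxycycline samples again lay above the controls with both vectors, but the gap to replicate 3 of the miR-10a doxycycline group was narrow. The log2 fold change of 0.24 (SE 0.061) with miR-10b passed the test (adjusted p = 0.0057, edgeR). With miR-10a the value was 0.16 (SE 0.061) and did not pass (adjusted p = 0.26). Over both vectors NEUROD1 was 14.7% higher (95% interval 8.01 to 21.9%, adjusted p = 0.0012), with an exact permutation p of 0.005 (two-sided), again the smallest possible.

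NHLH1 (chr1:160336861-160342636, plus strand, 2 exons), a bHLH factor of newborn neurons, was at 61.8, 56.9 and 61.9 CPM in the miR-10a controls and at 65.1, 68.9 and 67.4 CPM with doxycycline. In the miR-10b cultures it was at 65.3, 61.7 and 67.8 CPM without and at 75.5, 73.5 and 65.3 CPM with doxycycline. The groups were separate with miR-10a and overlapped with miR-10b, where replicate 3 of the doxycycline group lay within the range of the controls. Neither vector alone passed the test, with log2 fold changes of 0.16 (SE 0.056, adjusted p = 0.21, edgeR) and 0.14 (SE 0.054, adjusted p = 0.083). Leaving out each sample of the miR-10b groups in turn gave 0.09578 to 0.199 for the miR-10b value (adjusted p 0.0103 to 0.331, edgeR). Only the highest of these, without replicate 3 of the doxycycline group, passed the test. Over both vectors NHLH1 was 10.9% higher (95% interval 4.97 to 17.1%, adjusted p = 0.0073), with an exact permutation p of 0.015 (two-sided).

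NEUROD4 (chr12:55413758-55423801, plus strand, 2 exons), a bHLH factor of differentiating neurons and the one gene of the 8 with a 7mer-A1 match, did not pass the test. It was at 43.6, 41.2 and 42.3 CPM in the miR-10a controls and at 46.1, 49.4 and 41.1 CPM with doxycycline. In the miR-10b cultures it was at 46.7, 43 and 45.6 CPM without and at 49.1, 49.5 and 46.6 CPM with doxycycline. The groups overlapped with both vectors, and replicate 3 of the miR-10a doxycycline group was the lowest of its vector. The average log2 fold change was 0.11 (SE 0.043), with a 95% interval from 0.0173 to 0.193 before adjustment and an adjusted p of 0.10 in edgeR (exact permutation p = 0.06, two-sided). Leaving out each of the 12 samples in turn gave 0.07247 to 0.1386 (adjusted p 0.0312 to 0.333, edgeR). Only the highest of these, without that replicate 3, passed the test.

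**Figure D2:**
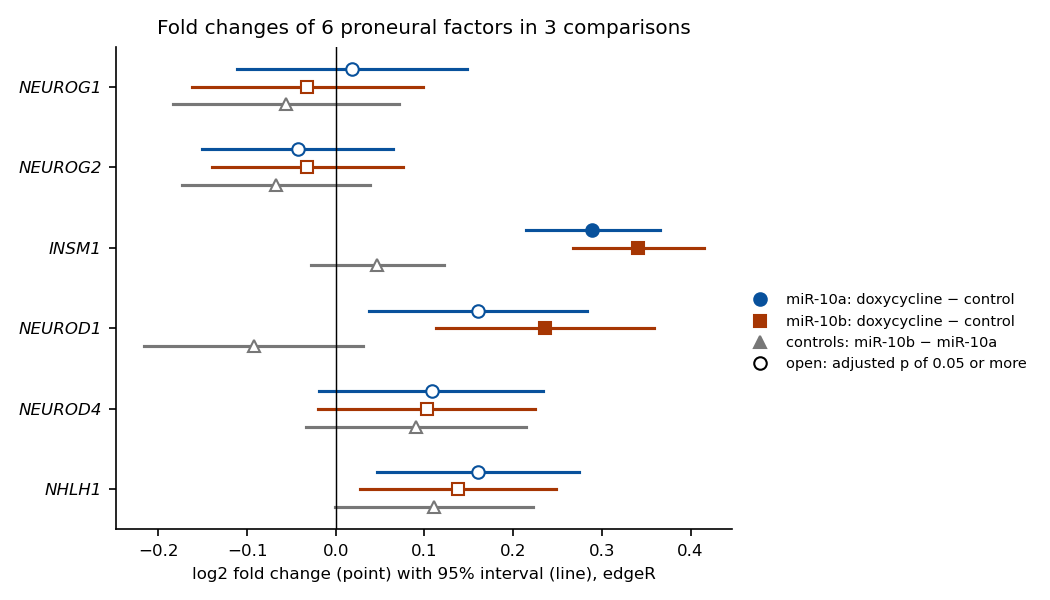
log2 fold change (points) with its 95% interval (lines) of the 6 measured factors for doxycycline against control with each vector and for the miR-10b control against the miR-10a control; filled symbols have an adjusted p under 0.05. The filled symbols are INSM1 with both vectors (0.289 and 0.341) and NEUROD1 with miR-10b (0.236).

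NHLH2 and ATOH1 were close to or below the smallest number of reads that can be told from 0, taken as 3 reads, or 0.212 to 0.284 CPM. NHLH2 (chr1:116378998-116386538, minus strand), the sister gene of NHLH1, had 4, 1 and 7 reads in the miR-10a controls and 3, 7 and 1 with doxycycline, against 8, 10 and 15 in the miR-10b controls and 11, 11 and 9 with doxycycline. The miR-10b cultures were thus higher with and without doxycycline. Without a filter on counts, the miR-10b controls exceeded the miR-10a controls by 1.42 on the log2 scale (SE 0.46, adjusted p = 0.032, edgeR), whereas the exact permutation p was 0.1 (two-sided), the smallest that 3 against 3 samples allow. ATOH1 (chr4:94749904-94752115, plus strand, 1 exon), a proneural factor of the dorsal hindbrain and inner ear, had 1 read in 1 of the 12 samples, a miR-10a control. Its expression was therefore not detectable at this depth in any group.

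In all, 1 of the 6 tested proneural genes was called with miR-10a, where 1.21% of all tested genes were called (0.472% higher and 0.742% lower). With miR-10b it was 2 of 6, where 15.3% of all genes were called (8.18% higher and 7.15% lower). Over both vectors it was 3 of 6, all higher, where 13.9% were called (7.67% higher and 6.22% lower), and none of the 6 was called lower. The median log2 fold change over both vectors was 0.127 for the 6 genes and 0.0147 for all tested genes. All doxycycline samples lay above all controls of their vector, with both vectors, for 2 of the 6 genes, INSM1 and NEUROD1, and for 3.71% of all tested genes. The balance of calls over all genes depended on the scaling between samples, with 878 higher and 712 lower over both vectors as reported here, 665 and 852 with TMM factors and 459 and 740 with DESeq2. The same numbers of proneural genes were called with these scalings, 1, 2 and 3.

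Ratios of reads within a sample need no scaling between samples and were taken against NEUROG2, as a description without a test. INSM1 had 2.04 to 2.12 reads per NEUROG2 read in the miR-10a controls and 2.48 to 2.83 with doxycycline, and 2.21 to 2.3 and 2.72 to 3.19 in the miR-10b cultures. NEUROD1 went from 0.428 to 0.439 in the miR-10a controls to 0.494 to 0.499, and from 0.412 to 0.437 in the miR-10b controls to 0.454 to 0.579. Both ratios were higher in every doxycycline sample than in every control of the same vector. NHLH1 had 0.649 to 0.699 reads per NEUROG2 read in the miR-10a controls and 0.737 to 0.844 with doxycycline, and 0.728 to 0.844 and 0.829 to 0.895 in the miR-10b cultures, where the ranges overlapped. NEUROD4 was at 0.471 to 0.482 and then 0.514 to 0.548 with miR-10a, and at 0.509 to 0.568 and then 0.558 to 0.614 with miR-10b. The ratio of the neurogenins to each other stayed within 0.428 to 0.508 in all 12 samples. A ratio shows unequal change and not which of its 2 genes changed.

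**Figure D3:**
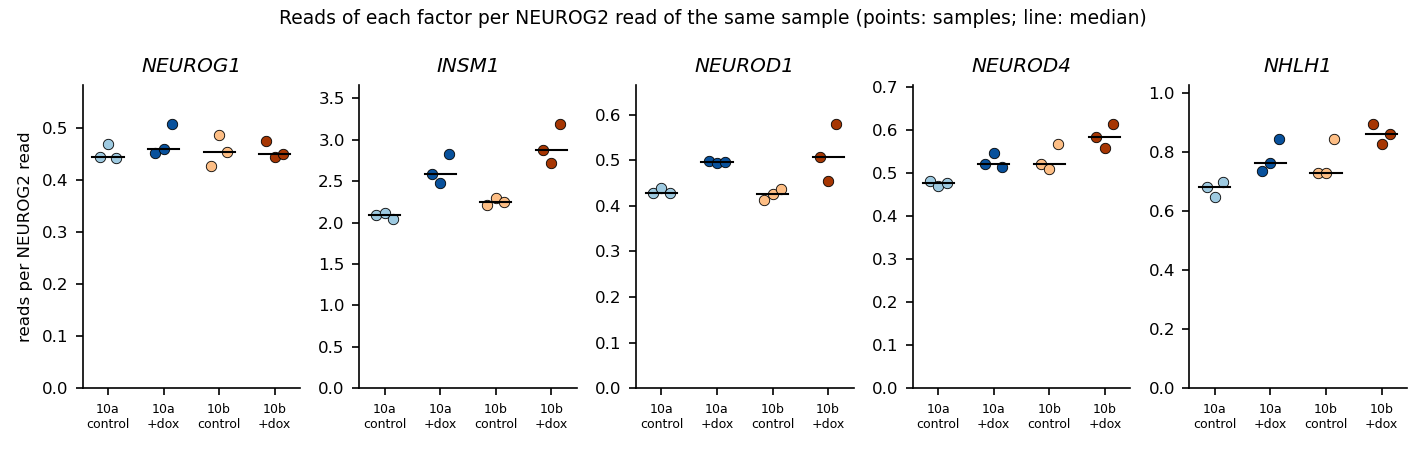
Reads of 5 factors per NEUROG2 read of the same sample, by group (linear axes from 0); points are samples and lines the medians of 3. INSM1 moved from 2.04 to 2.3 in the controls to 2.48 to 3.19 with doxycycline, whereas NEUROG1 stayed between 0.428 and 0.508.

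The design also allows the effects of both vectors to be compared with each other. The difference between the miR-10b and the miR-10a effect was called for 0 of the 6 genes in edgeR and in DESeq2, 0 also at an unadjusted p under 0.05, where 1.96% of all tested genes were called. For INSM1 the difference was 0.052 on the log2 scale (95% interval -0.0537 to 0.157), and for NEUROD1 it was 0.076 (95% interval -0.0983 to 0.25). A difference of these sizes in either direction was therefore not resolved.

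The controls of the vectors were compared to see the starting level of each factor. Among all tested genes, 14.1% differed between the miR-10b and the miR-10a controls, and 0 of the 6 proneural genes did in edgeR and DESeq2, 0 also at an unadjusted p under 0.05. The nearest was NHLH1, 0.11 higher on the log2 scale in the miR-10b controls (95% interval -0.000389 to 0.222, adjusted p = 0.20). NEUROD1 was lower in all 3 miR-10b controls than in all 3 miR-10a controls, by a log2 difference of -0.092 (95% interval -0.216 to 0.0309, adjusted p = 0.38). Vector and culture cannot be told apart in this comparison.

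The promoters of the factors were then examined for E-boxes, the letters CANNTG that bHLH factors bind. RefSeq promoters (GRCh38.p14, 250 bases before to 50 after the start) were held for 7 of the 8 genes, all but INSM1, and E-box letters were searched on both strands, CANNTG covering the narrower forms CAGATG and CAGCTG. Of 35116 promoters, 68.7% held at least 1 CANNTG, with 1.29 on average, 14.7% held CAGATG and 17.9% CAGCTG. The promoters of 3 genes are printed, in the direction of the gene and with E-boxes in capitals, because NHLH1 and NEUROD1 were called higher over both vectors and NEUROG2 was not called. They lie at chr1:160366821-160367120 on the plus strand, chr2:181680468-181680767 on the minus strand and chr4:112516131-112516430 on the minus strand.
NHLH1 promoter: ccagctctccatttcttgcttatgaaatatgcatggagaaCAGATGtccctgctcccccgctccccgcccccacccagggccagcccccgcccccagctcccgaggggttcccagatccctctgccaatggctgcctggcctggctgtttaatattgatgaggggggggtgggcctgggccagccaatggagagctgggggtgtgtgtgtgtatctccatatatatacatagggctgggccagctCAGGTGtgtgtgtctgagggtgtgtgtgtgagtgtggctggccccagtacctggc
NEUROD1 promoter: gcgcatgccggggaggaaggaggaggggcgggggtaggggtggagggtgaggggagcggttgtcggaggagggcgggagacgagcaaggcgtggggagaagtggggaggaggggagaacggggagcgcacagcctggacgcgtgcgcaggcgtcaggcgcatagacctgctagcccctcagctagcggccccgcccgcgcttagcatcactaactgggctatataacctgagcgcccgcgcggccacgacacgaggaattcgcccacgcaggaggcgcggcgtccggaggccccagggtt
NEUROG2 promoter: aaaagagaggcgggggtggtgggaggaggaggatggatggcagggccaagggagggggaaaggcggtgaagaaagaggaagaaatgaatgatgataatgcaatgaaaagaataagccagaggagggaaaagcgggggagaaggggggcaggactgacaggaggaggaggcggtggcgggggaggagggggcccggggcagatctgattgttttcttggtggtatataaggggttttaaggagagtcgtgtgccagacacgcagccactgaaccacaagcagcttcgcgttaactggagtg
The NHLH1 promoter held CAGATG 210 bases before the start and CAGGTG 5 bases before it, whereas those of NEUROD1, NEUROG1 and NEUROG2 held none. NEUROD4 held CAAGTG 116 bases and CAGCTG 46 bases before its start. A match describes the letters of this window and no more.

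The genes around the factors were taken from 6 lists of 73 genes, of which 52 were tested. The others were not above a mean of 10 reads. How reads shared by transcripts were counted is not given, so that a low value does not show absence. Over both vectors 10 of the 52 were called higher and 5 lower, where 7.67% of all tested genes were higher and 6.22% lower. This balance depended on the scaling between samples, with 8 higher and 6 lower with TMM factors and 6 and 6 with DESeq2. The 52 genes had a median log2 fold change of 0.0434, against 0.0147 for all tested genes. With miR-10b it was 10 higher and 7 lower (8.18% and 7.15% of all tested genes). With miR-10a it was 0 higher and 3 lower in edgeR (0.472% and 0.742% of all tested genes). At an unadjusted p under 0.05 it was 6 higher and 5 lower with miR-10a, and DESeq2 also called 0 higher and 3 lower. All 3 calls with miR-10a were lost without replicate 3 of the miR-10a control group. Of the 15 calls over both vectors, 10 were kept under all 19 alternatives tried and none changed direction. Between the controls, 10 of the 52 were called higher and 4 lower in the miR-10b cultures, where 14.1% of all tested genes differed.

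Among the sister bHLH genes, 7 of 12 were tested and 0 were called over both vectors in edgeR and in DESeq2, with 1, OLIG1, at an unadjusted p under 0.05. ATOH8 and OLIG2, the most counted genes of the list, were at 29.4 and 16.5 CPM on average in the miR-10a controls. The log2 fold change over both vectors was -0.016 for ATOH8 (SE 0.048, adjusted p = 0.88, edgeR) and 0.046 for OLIG2 (SE 0.064, adjusted p = 0.71). OLIG1, named after its value was seen, was at 0.17 (SE 0.067, adjusted p = 0.095).

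Of the E-proteins and ID inhibitors, 5 of 7 were tested and ID4 was called lower with both vectors. ID4, which binds E-proteins and keeps them from bHLH factors, was at 956 ± 23.3 CPM in the miR-10a controls and 860 ± 13.3 with doxycycline (SD, n = 3), and at 1334 ± 53.9 and 1124 ± 34.4 CPM in the miR-10b cultures. The log2 fold change was -0.15 (SE 0.032, adjusted p = 0.0055, edgeR) with miR-10a and -0.25 (SE 0.031, adjusted p = 3e-07) with miR-10b. The call with miR-10a was kept in 11 of 14 alternatives and that with miR-10b in all 14. The miR-10b controls already exceeded the miR-10a controls by 0.48, more than either effect of doxycycline. The most counted others of the list, ID3 at 130 ± 0.511 CPM and the E-protein TCF3 at 107 ± 2.73 CPM in the miR-10a controls, were not called.

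In the Notch pathway the calls went both ways. Among HES and HEY factors, 5 of 8 were tested: HES5, a repressor of proneural genes, fell by 0.138 on the log2 scale over both vectors (SE 0.038, adjusted p = 0.011, edgeR), and HEYL rose by 0.219 (SE 0.036, adjusted p = 3.6e-05). HES1 was at 316 ± 3.39 CPM in the miR-10b controls and 291 ± 1.71 with doxycycline (SD, n = 3) and was called with miR-10b (adjusted p = 0.0096) but not over both vectors (adjusted p = 0.071). The miR-10b controls exceeded the miR-10a controls by 0.444 for HES1 and 0.398 for HEYL on the log2 scale, more than their changes with doxycycline. Among Notch ligands and modifiers, 6 of 8 were tested and DLL4 was called. DLL4 had a log2 fold change of -0.37 with miR-10b (adjusted p = 4.4e-05, edgeR) and of -0.037 with miR-10a (adjusted p = 0.89). The ligands that proneural factors switch on in newborn neurons include DLL1, which was at 252 to 263 CPM on average in the miR-10a groups and 223 to 224 in the miR-10b groups and was not called for doxycycline (log2 fold change -0.028, adjusted p = 0.56). JAG1 was not called either (-0.036, adjusted p = 0.33).

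Of 18 genes downstream in the neurogenic cascade, 14 were tested. Over both vectors 5 of them were called higher and none lower, where 7.67% of all tested genes were higher and 6.22% lower. The 14 genes had a median log2 fold change of 0.0737. SCRT1, a repressor of newborn neurons, rose most among the called genes, from 40.9 ± 1.05 to 55.4 ± 4.08 CPM with miR-10b (SD, n = 3), and by 0.29 on the log2 scale over both vectors (SE 0.042, adjusted p = 4.6e-06, edgeR). The other calls were the antiproliferative gene BTG2, known from progenitors about to give rise to neurons, at 0.11, the neuronal splicing regulator SRRM4 at 0.12, the zinc-finger factor MYT1 at 0.13 and the factor EBF3 at 0.12. The BTG2 and MYT1 calls were lost with DESeq2. SCRT2 was called higher with miR-10b (0.34, adjusted p = 0.0067), a call lost without replicate 2 of the miR-10b doxycycline group. The most counted gene of the list, POU3F2, was at 615 ± 6.23 CPM in the miR-10a controls and 616 ± 8.14 with doxycycline and was not called.

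Of 20 early neuron genes, 15 were tested, with a median of 0.0669 over both vectors. There 4 were called higher and 2 lower, where 7.67% of all tested genes were higher and 6.22% lower. The neurofilament gene NEFM rose from 314 ± 13.8 to 388 ± 18.3 CPM with miR-10b (adjusted p = 1.5e-07, edgeR) and the microtubule gene MAP2 from 357 ± 12.1 to 434 ± 20.9 CPM (adjusted p = 2.2e-07; SD, n = 3). With miR-10a neither was called. POU4F1 was called lower with miR-10b (log2 fold change -0.594, adjusted p = 0.0054, edgeR). That call was lost with DESeq2 and without replicate 1 of the miR-10b doxycycline group. With miR-10b the list thus had 4 genes called higher and 3 lower. INA and NEFL were called higher over both vectors at 0.065 and 0.067, calls that were lost with TMM factors and with DESeq2. The vesicle gene SYT4 and the axon adhesion gene CNTN2 were called lower over both vectors, at -0.22 and -0.14, and with each vector alone. With miR-10a the SYT4 call was kept in 13 of 14 alternatives and the CNTN2 call in 8. The CNTN2 call was lost in every fit without a sample of the miR-10a groups. Genes of this list thus moved in both directions.

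**Figure D4:**
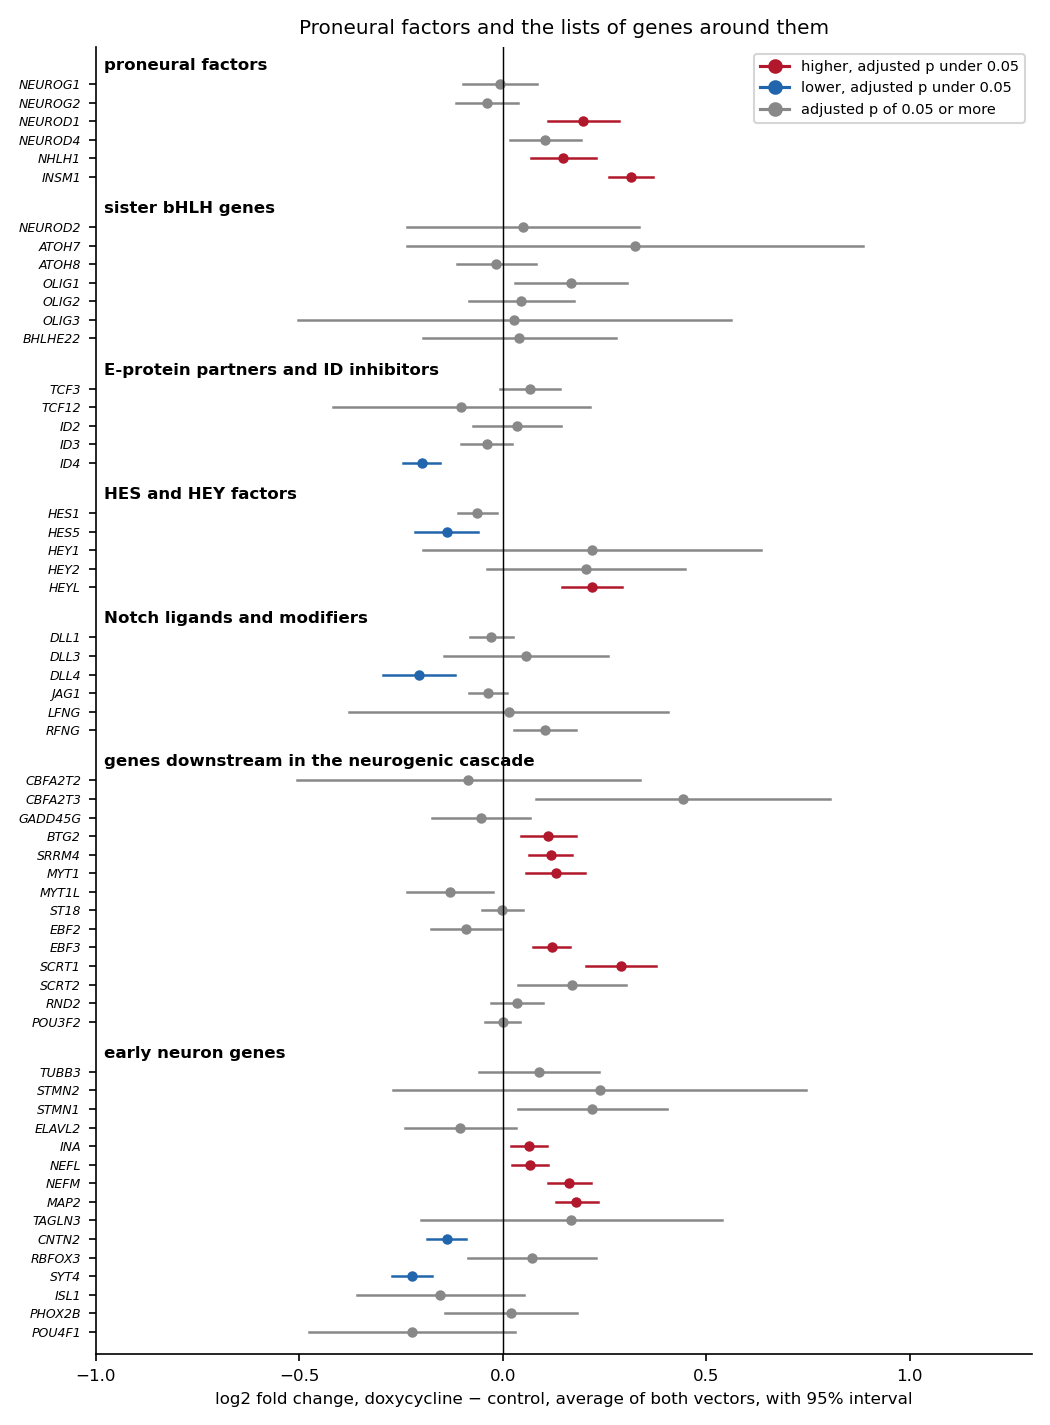
log2 fold change over both vectors with its 95% interval for the 6 measured factors and 52 other genes of the lists; red is higher and blue lower at an adjusted p under 0.05, grey not called. INSM1 at 0.315 lies farthest to the right among the called genes, and SYT4 at -0.224 farthest to the left.

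Other cell types could also supply some of these transcripts, and their markers were read beside the results. How reads shared by several transcripts of a gene were counted is not given. A marker near 0 therefore does not show that its cell type was absent. In the miR-10a controls the neuron genes DCX and ELAVL3 were at 0.204 and 0.178 CPM on average, beside MAP2 at 355 CPM. INSM1 and NEUROD1 are also genes of endocrine pancreas, where PDX1, INS and GCG were at or close to 0 (0 to 0.0841 CPM). The 6 genes of that list summed to 126 to 128 CPM in the miR-10a controls and 118 to 129 with doxycycline, and to 108 to 113 and 118 to 135 CPM in the miR-10b cultures. Nearly all of it came from NKX6-1 and CHGA, genes that neural tissue also uses, and both were called higher with miR-10b. The NKX6-1 call was lost in 2 of 14 alternatives, without replicate 2 of the miR-10b doxycycline group (0.132, adjusted p = 0.0941) and without replicate 3 of the miR-10b control group (0.173, adjusted p = 0.068), and the CHGA call in 9 of 14, among them TMM factors, DESeq2 and each fit without a sample of these 2 groups. The doxycycline samples lay above the controls in the miR-10b cultures, and the part of this in the changes of INSM1 and NEUROD1 was not tested. Summed markers of mesoderm and endoderm were at 0.15 to 0.556 CPM and those of neural crest at 2.63 to 4.22 CPM, and their ranges overlapped between the doxycycline samples and controls of each vector. Placode markers, from tissue that also uses NEUROG1 and NEUROD1, summed to 32.4 to 36.9 CPM, also with overlapping ranges. Of the 5 pluripotent markers, which summed to 102 to 155 CPM, NANOG was at 0 and nearly all reads came from DPPA4, with overlapping ranges. Markers of cycling cells summed to 2456 to 2832 CPM, with ranges that overlapped with both vectors, and most of the sum came from TOP2A. CDK1, which drives entry into mitosis, was the one gene of that list called, lower with miR-10b (log2 fold change -0.335, SE 0.084, adjusted p = 0.0045, edgeR). That call was lost without replicate 2 of the miR-10b doxycycline group (-0.21, adjusted p = 0.0666), and the part of cycling cells in the results was not tested.

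The summed list of floor plate and neural progenitor genes was lower with doxycycline. Most of the sum came from NES and VIM, at 4595 and 4246 CPM on average in the miR-10a controls. Its summed level was 10762 to 10813 CPM in the miR-10a controls and 10379 to 10721 with doxycycline, and 12014 to 12092 and 11449 to 11665 CPM in the miR-10b cultures. The doxycycline samples were lower than all controls of their vector. Over both vectors 3 of 11 tested genes (SOX3, NES and CORIN) were called lower, where 6.22% of all tested genes were. With miR-10a alone 0 of the 11 were called. VIM was not called over both vectors (log2 fold change -0.0013, adjusted p = 0.98, edgeR). Other uncalled genes went both ways, among them LMX1A at 0.333 (adjusted p = 0.064) and SOX1 at -0.106 (adjusted p = 0.14). Between the controls, 7 of the 11 were called higher and 2 lower in the miR-10b cultures, where 14.1% of all tested genes differed. The log2 differences between controls were 1.61 for CORIN, -0.76 for SOX3 and 0.167 for NES. Each was larger in size than the change with doxycycline over both vectors (-0.527, -0.259 and -0.0903). Total counts were also lower in all doxycycline samples. The part of this list or of the totals in the changes of INSM1, NEUROD1 and NHLH1 was not tested. With all samples thinned to 10545487 reads, which evens out the totals only, the same numbers of proneural genes were called. These numbers were 1 with miR-10a, 2 with miR-10b and 3 over both.

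The genes whose pattern over the 12 samples was most like that of each factor were sought by the root mean square difference of centred log2(CPM + 0.5) values, as a description. The pattern of NEUROG2 was closest to those of MAGEL2 (0.0445), NPR2 (0.0446) and C14orf169 (0.0479), and that of NEUROG1 to SAMD1 (0.044), IWS1 (0.0458) and NADSYN1 (0.0482). INSM1 had no equally close gene, with ATP6V0D1 at 0.0715, GPR50 at 0.0717 and PI4KA at 0.0754. Its own profile was also the largest of the 6, with a root mean square of 0.166. Those of NEUROG1 and NEUROG2 were at 0.0772 and 0.0782, and the differences were not scaled to profile size. The nearest genes of NEUROD1 were LINC01521 (0.0458), CCNG2 (0.0529) and TSPAN7 (0.0555), those of NEUROD4 were FAM171A2 (0.0498), TBCC (0.0504) and ERAL1 (0.0522), and those of NHLH1 were ASNA1 (0.0455), FLJ37453 (0.046) and BTG2 (0.0481). Of the factors themselves, NEUROG1 and NEUROG2 were the closest pair, at 0.0647, followed by NEUROD4 and NHLH1 at 0.0691. INSM1 was closer to NEUROD1 (0.101) than to the neurogenins (0.19 and 0.201). All these samples share their 4 groups, so that flat profiles resemble each other.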

How the data were processed

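Poly-A enriched RNA of the 12 samples was sequenced by the authors as short single-end reads, mapped to hg19 and counted on RefSeq transcripts, and the raw read counts per transcript were deposited by the authors, without normalization. The submitters' processing notes name STAR, Subread and featureCounts. For RNA extraction and libraries the methods name the RNeasy and NuGEN Ovation kits and the labels miRNeasy and Illumina kits. The floor of 3 reads covers counting error only.

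Each file held 51799 rows, of which 3698 repeated a transcript with the same counts and were dropped, leaving 48101 transcripts of 25718 gene symbols. Where a symbol had several transcripts (9509 symbols), its most counted transcript stood for it. Library sizes were total counts, as in the study. Genes with a mean above 10 counts (11451) were fitted by the quasi-likelihood test of edgeR 4.0.16 (R 4.3.3) over all 12 samples with 4 group means, p-values were adjusted over all genes tested by Benjamini-Hochberg, and the threshold was 0.05. Doxycycline was compared with control for each vector, the resulting effects were averaged and subtracted, and the controls were compared with each other. The code was tested on simulated data. Single values were compared by exact permutation (two-sided) on log2(CPM + 0.5). Seed matches were searched in the longest 3′UTR of each gene (GENCODE 44, GRCh37) and E-boxes in the RefSeq promoter table (GRCh38.p14). Other steps used Python 3.11.15, pandas 2.3.3 and numpy 2.4.6.

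The 8 genes, the lists around them and the marker lists were chosen with earlier results of these data known. All 8 genes are named; from each list the genes called in the contrast described and the 2 most counted genes could be named. Some genes were left out of the lists and are not reported here. Same-numbered replicates did not deviate together (correlations between -0.0319 and 0.0082), and differently numbered ones were at -0.0225 to 0.0394. The main fit used no block, and these correlations cannot show whether the samples were paired. Alternatives were TMM factors, DESeq2 1.42.0, other filters on counts, a replicate block, fits of the compared groups alone, summed transcripts and leaving out each sample. A fit after thinning all samples to 1 total was added once the totals had been seen.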

Additional observations from a re-analysis of the deposited data

Results flagged for a closer look

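The effects of doxycycline differed between the vectors for 4 genes around the proneural factors, by the interaction term of edgeR over all 11451 genes, in which 224 genes were called. DLL4, a Notch ligand, had a difference of -0.336 on the log2 scale (miR-10b minus miR-10a, SE 0.088, adjusted p = 0.035). DLL4 was at 40.1 ± 0.956 CPM in the miR-10a controls and 39 ± 0.824 with doxycycline, and at 39.4 ± 2.46 and 30.4 ± 1.24 CPM in the miR-10b cultures (SD, n = 3). The call was lost with DESeq2 and in 8 of the 12 fits that left out 1 sample. The neurofilament genes NEFM and NEFL differed by 0.279 (SE 0.053, adjusted p = 0.0016, edgeR) and 0.178 (SE 0.043, adjusted p = 0.019), and the microtubule gene MAP2 by 0.205 (SE 0.05, adjusted p = 0.02). NEFM alone of the 4 kept its call under all 19 alternatives.

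The precursor genes differed as the vectors are labelled, by -9.36 for MIR10A (adjusted p = 0.0069, edgeR) and 10.1 for MIR10B (adjusted p = 1.7e-15).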

How the results depend on the processing

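The numbers of proneural genes called, 1 with miR-10a, 2 with miR-10b and 3 over both vectors, were the same with TMM factors, DESeq2, the other filters, the replicate block, summed transcripts, fits of the compared groups alone and thinned counts. Over those alternatives the log2 fold change of INSM1 was 0.2997 to 0.3155 over both vectors (adjusted p 7.89e-28 to 1.04e-10), that of NEUROD1 0.1823 to 0.2185 (adjusted p 0.000626 to 0.00738) and that of NHLH1 0.1329 to 0.1489 (adjusted p 0.00256 to 0.0323). Without a filter on counts, 1 gene (NHLH2) differed between the controls and the interaction called 343 genes instead of 224. With only the groups compared, miR-10a called 272 genes instead of 139. With the replicate block 166, 1826 and 1680 genes were called with miR-10a, with miR-10b and over both (139, 1756 and 1590 without), and no proneural call changed.

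Leaving out 1 sample gave 78 to 104 genes called with miR-10a, 1216 to 1796 with miR-10b, 1203 to 1719 over both, 140 to 340 for the interaction and 1231 to 1335 between the controls. The lowest counts with miR-10a were 78, 81 and 84, without doxycycline replicate 1, control replicate 3 and control replicate 1. The interaction gave 140 without miR-10a control replicate 2 and 340 without miR-10b doxycycline replicate 3. The proneural genes called were 1 with miR-10a, 2 to 3 with miR-10b, 3 to 4 over both and 0 in the other comparisons.

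Of 480 refitted fold changes of the 6 genes, 453 kept direction and side of the threshold, 2 passed it (NHLH1 and NEUROD4, in the report) and 25 changed sign, all of them of uncalled values near 0. With thinned counts the sign changed for NEUROG1 over both vectors (0.01268) and for the interaction of NEUROG2 (-0.02656). The others left out 1 sample, with NEUROG1 at -0.02806 to 0.02792 over both vectors, -0.07451 to 0.03747 with miR-10b and -0.0929 to 0.0191 for the interaction, NEUROG2 at -0.07891 to 0.007074 with miR-10a, -0.08242 to 0.02842 with miR-10b and -0.04 to 0.07123 for the interaction, and the interactions of NEUROD4 and NHLH1 at -0.07172 to 0.0606 and -0.06442 to 0.03857. The cause of these changes was not tested. At 3 replicates a group, 3 against 3 samples cannot give an exact permutation p under 0.1, ATOH1 was not detectable at this depth, and values of NHLH2 rest on 1 to 15 reads a sample.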
